A study of Homo sapiens with 3 samples.

Results

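Collagens are the trimeric proteins that give bone, cartilage, skin and basement membranes their strength, and this report describes where RUNX2 and CBFB were bound around their genes. The members were all protein-coding genes whose symbol is COL, a number, A and a number. They came to 44 of the 20163 protein-coding genes of GENCODE release 44 mapped to GRCh37, which is the build hg19 of the deposited peaks. Binding was mapped by sequencing immunoprecipitated chromatin (ChIP-seq) of untreated SAOS2 cells, which are human osteosarcoma cells that lack p53 and share osteoblast features. Of the 3 libraries, 1 was made with a custom RUNX2 antibody, 1 with a commercial CBFB antibody, and 1 was input DNA, which was not analysed here. There were no replicates, so that no test between antibodies or between genes was possible, and all values describe these peak lists.

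RUNX2 is the DNA-binding master regulator of osteoblasts, and CBFB is the partner that stabilises RUNX proteins on DNA. Type I collagen, made from COL1A1 and COL1A2, is the main organic component of bone. Fibrillar collagens (types I, II, III, V, XI, XXIV and XXVII) form the banded fibrils. Network collagens (types IV, VIII and X) form sheets, such as the type IV mesh of basement membranes and the type X lattice of hypertrophic cartilage. The others include FACITs, which sit on the surface of fibrils, beaded filament collagens (type VI), transmembrane collagens, multiplexins and the anchoring fibril collagen COL7A1. The 44 genes fell into 11 fibrillar, 9 network and 24 other collagens.

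The RUNX2 list held 9941 peaks and the CBFB list 27246. Each peak carries a score from the peak caller, which was read as -10 times log10 of its p-value. Scores began at 50 in both lists, with a median of 84.1 for RUNX2 and 121.1 for CBFB. Because such a score depends on sequencing depth, which is unknown here, scores were compared only within a list, as the percentage of the list at or below a score (percentile). The lists hold no expression values, so that the osteoblast character of the cells could not be checked against marker genes.

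The RUNX core motif TGTGGT is shown first, because it lets the strongest RUNX2 peak of a gene be read at the level of bases. Each line below gives the copy of the core nearest to the midpoint of the highest-scoring RUNX2 peak of a gene, read on the strand where it spells TGTGGT. The core is in capitals, and the coordinates are those of the printed bases in GRCh37.
COL1A1, chr17:48259286-48259345, minus strand: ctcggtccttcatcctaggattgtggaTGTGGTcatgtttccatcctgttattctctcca
COL1A2, chr7:94025517-94025576, minus strand: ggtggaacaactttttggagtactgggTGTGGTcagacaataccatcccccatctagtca
COL5A2, chr2:189994916-189994975, plus strand: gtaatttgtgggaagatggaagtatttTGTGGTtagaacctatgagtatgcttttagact
COL24A1, chr1:86603524-86603583, minus strand: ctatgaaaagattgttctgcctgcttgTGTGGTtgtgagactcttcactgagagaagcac
COL10A1, chr6:116439947-116440006, plus strand: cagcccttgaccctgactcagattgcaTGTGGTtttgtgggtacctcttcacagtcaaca
COL6A1, chr21:47430720-47430779, minus strand: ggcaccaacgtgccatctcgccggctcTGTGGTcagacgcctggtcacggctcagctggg
COL21A1, chr6:55911524-55911583, minus strand: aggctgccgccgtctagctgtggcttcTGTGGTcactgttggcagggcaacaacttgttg
COL26A1, chr7:101038930-101038989, plus strand: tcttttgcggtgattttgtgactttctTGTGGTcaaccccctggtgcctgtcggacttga

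In COL5A2, COL24A1 and COL10A1 the printed core was followed by T, which gives the longer RUNX site TGTGGTT. The core lay 13 bp from the peak midpoint in COL24A1, 20 bp in COL5A2, 23 bp in COL6A1, 50 bp in COL26A1, 73 bp in COL1A1, 100 bp in COL1A2, 101 bp in COL21A1 and 173 bp in COL10A1. The strongest RUNX2 peak near COL5A1 held 0 copies of the core, while that near COL6A1 held 8 and that of COL23A1 held 9. A match describes the sequence and does not show which base was bound.

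To see how many collagen genes carried binding sites, peaks of both lists within 25 kb of each gene body were taken. A RUNX2 peak was found at 27 of the 44 genes (61.4%, exact 95% interval 45.5 to 75.6), against 36.0% of all protein-coding genes. A CBFB peak was found at 35 (79.5%, 64.7 to 90.2), against 62.2%. The peak numbers of both lists went together across the 44 genes, with Spearman's rho of 0.837, compared with 0.685 across all protein-coding genes. Both kinds of peak were found at 26 genes (59.1%, against 35.1% of all protein-coding genes). CBFB peaks alone were found at 9 (20.5%, against 27.1%), and RUNX2 alone only at COL28A1. The remaining 8 genes (COL2A1, COL3A1, COL11A1, COL11A2, COL4A1, COL4A5, COL17A1 and COL22A1) had neither, which is 18.2%, against 36.9% of all protein-coding genes. The RUNX2 peaks numbered 52 and the CBFB peaks 142, and no peak was shared by 2 collagen genes, not even by the head-to-head pairs COL4A1 and COL4A2 or COL4A3 and COL4A4.

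Collagen genes are long, and a long gene has a wide window. Their median length was 144.8 kb, against 27.2 kb for all protein-coding genes. All protein-coding genes were therefore divided into 5 length classes. The share with a RUNX2 peak rose from 29.5% in genes under 20 kb to 53.1% in genes of 200 kb or more. If each collagen gene had the share of its length class, 19.4 genes would carry a RUNX2 peak and 30.9 a CBFB peak, compared with the 27 and 35 counted. The RUNX2 count was above the class share in all 5 classes, with 6 of 11 genes from 20 to 50 kb (class share 35.7%), 4 of 5 from 50 to 100 kb (38.6%), 9 of 14 from 100 to 200 kb (47.1%) and 7 of 12 from 200 kb (53.1%). For CBFB, the longest class was level, with 9 of 12 genes against 75.6%. The number of peaks in that class was lower at collagen genes, with a mean of 1.33 RUNX2 peaks against 1.52 and 3.50 CBFB peaks against 4.34.

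**Figure D1:**
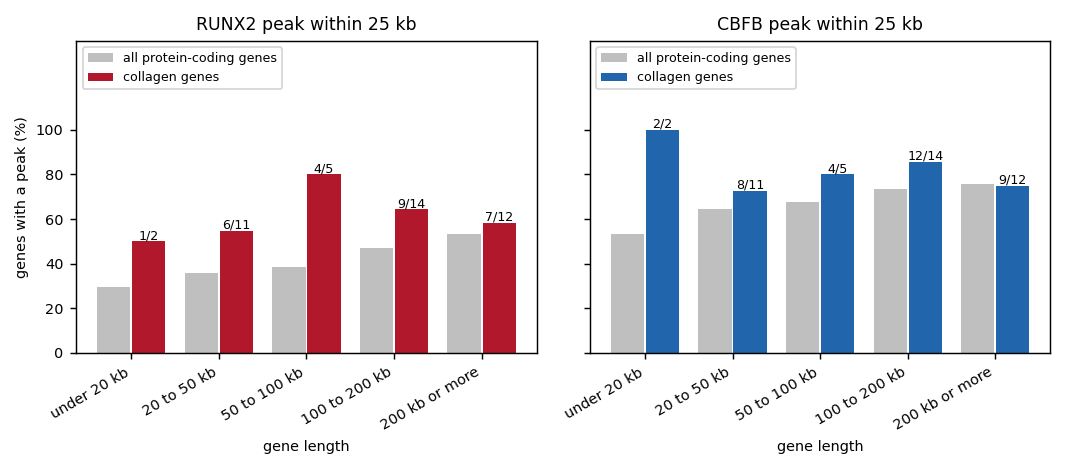
Share of genes with a RUNX2 peak (left) or a CBFB peak (right) within 25 kb of the gene body, in percent, by gene length class. Grey bars are all protein-coding genes, coloured bars the collagen genes, with their counts above; the RUNX2 share was above the grey bar in all 5 classes.

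With windows of 25 kb around the gene start only, in which the length of a gene plays no part, the difference was smaller. A RUNX2 peak lay there at 14 of 44 collagen genes (31.8%), against 25.2% of protein-coding genes. A CBFB peak lay there at 25 genes (56.8%), against 50.5%. Across the 44 genes, gene length and number of peaks were nearly unrelated, with Spearman's rho of 0.0789 for RUNX2 and 0.0233 for CBFB.

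By class, a RUNX2 peak was found at 7 of 11 fibrillar genes (63.6%, exact 95% interval 30.8 to 89.1), 4 of 9 network genes (44.4%, 13.7 to 78.8) and 16 of 24 other collagens (66.7%, 44.7 to 84.4). The length classes gave 4.64, 4.19 and 10.6 genes. The intervals overlap, so that the classes could not be told apart on this count. CBFB peaks were present at 7 fibrillar, 7 network and 21 other collagens, where the length classes gave 7.54, 6.5 and 16.9 genes. The fibrillar share of 63.6% was thus near the 62.2% of all protein-coding genes. Every fibrillar gene with a CBFB peak also had a RUNX2 peak, although at COL1A2 the peaks of both lists did not overlap. CBFB peaks alone were found at 0% of the 11 fibrillar, 33.3% of network (3 genes) and 25% of other collagens (6 genes). The share over all protein-coding genes was 27.1%, and the classes are too small to be told apart from it. Counted per window, there were 0.826 RUNX2 peaks per 100 kb at fibrillar genes (exact Poisson 95% interval 0.472 to 1.34), 0.286 at network genes (0.0928 to 0.667) and 0.625 at other collagens (0.425 to 0.887). The value over all protein-coding genes was 0.434. These intervals cover counting error only, and those of the fibrillar and network genes overlap. With peaks of score 100 or more, fibrillar genes no longer came first, with 0.258 at fibrillar, 0.286 at network and 0.303 at other collagens. These values rest on 5, 5 and 15 peaks in windows of 1.94, 1.75 and 4.96 Mb, so that the classes could not be ordered. CBFB gave 2.12, 1.32 and 1.57 peaks per 100 kb in the same order, against 1.21 over all protein-coding genes.

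The surroundings of the genes differed as well. In the rest of the region within 1 Mb, RUNX2 had 0.574 peaks per 100 kb around fibrillar, 0.376 around network and 0.621 around other collagens. The windows thus held 1.44 times the density of their surroundings at fibrillar genes, 0.760 times at network genes and 1.01 times at other collagens. For CBFB these ratios were 1.41, 1.44 and 0.924. Over the windows of all collagen genes together, the density was close to that of the surroundings. RUNX2 had 0.602 peaks per 100 kb against 0.566 (1.06 times), and CBFB had 1.64 against 1.51 (1.09 times). The part of the surrounding density in the class values was not tested.

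**Figure D2:**
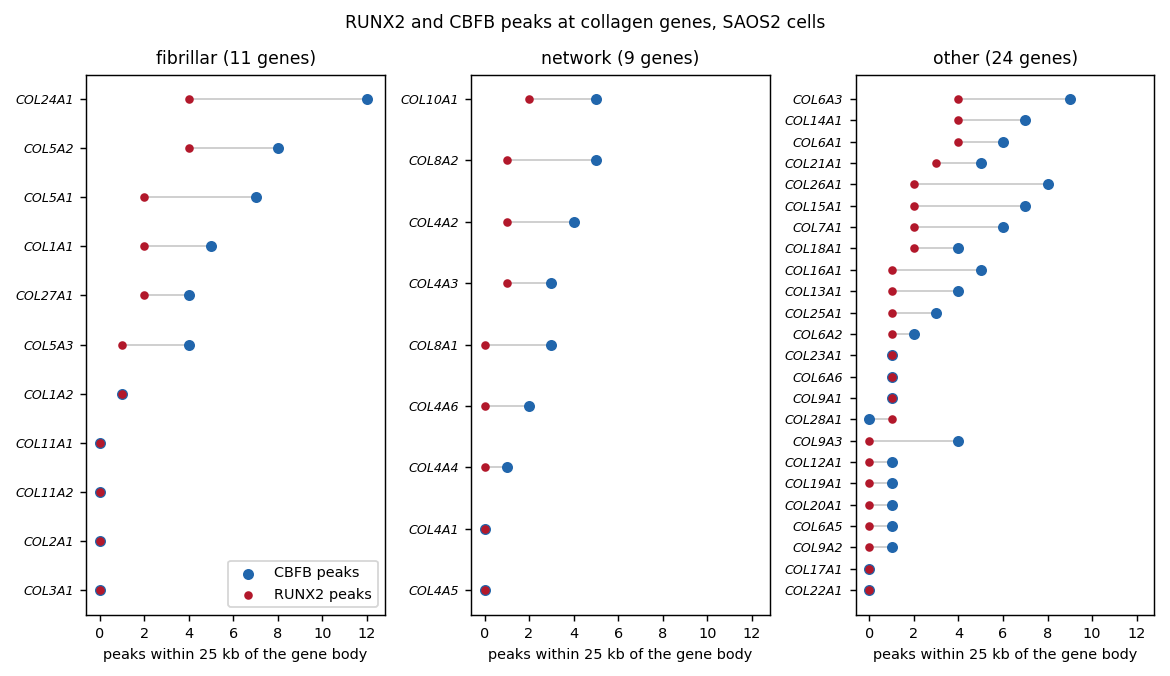
Number of RUNX2 peaks (red) and CBFB peaks (blue) within 25 kb of each of the 44 collagen genes, by class, with 1 library per antibody. RUNX2 reached 4 peaks at 5 genes, CBFB reached 12 at COL24A1, and 8 genes had neither.

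The genes for the chains of type I collagen, the collagen of bone, had 3 RUNX2 peaks between them. COL1A1 (chromosome 17, 48261462 to 48278993, minus strand), carried RUNX2 at 2 and CBFB at 5 places. Its window held 2.96 RUNX2 peaks per 100 kb, the highest density of the fibrillar class. Counted per gene, its 2 RUNX2 peaks stand beside a mean of 0.428 over protein-coding genes under 20 kb. Neither RUNX2 peak lay within the gene. The first (48258717 to 48259770, score 135.42, above or level with 77.4% of the list) lay 1692 bp beyond the end of the gene, and the second (48287511 to 48288431, score 102.64) had its midpoint 8978 bp upstream of the gene start. Both overlapped CBFB peaks, with scores of 471.21 and 357.77. A further CBFB peak without RUNX2 (48276957 to 48278258, score 177.84) lay in intron 1, next to the promoter.

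COL1A2 (chromosome 7, 94024207 to 94060539, plus strand) had a single RUNX2 peak in intron 1 (94025276 to 94026019, score 63.6, percentile 26.7), with its midpoint 1440 bp after the gene start. It overlapped no CBFB peak. The only CBFB peak of the gene lay 18954 bp upstream, with a score of 50.6, near the lower end of that list. The genes of both chains of the same protein thus had unlike sets of peaks.

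Of the other 9 fibrillar genes, 5 had a RUNX2 peak and 4 had none. COL5A2, a chain of the type V collagen that nucleates fibrils, had 4 RUNX2 peaks, all in intron 1 and from 52874 to 103769 bp after the gene start. Their scores were 80.17, 51.32, 123.21 and 99.06, and all 4 overlapped CBFB peaks. COL24A1, a minor fibrillar collagen of developing bone, had 4 intronic RUNX2 peaks with scores from 74.89 to 110.34, of which 3 overlapped CBFB peaks, and 12 CBFB peaks in all.

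COL5A1, which encodes the other main chain of type V collagen, had the highest RUNX2 score of the fibrillar class. Its RUNX2 peak (chromosome 9, 137528985 to 137530287, score 333.31, percentile 97.0) had its midpoint 4013 bp upstream of the gene start and overlapped a CBFB peak with a score of 1660.47. A second RUNX2 peak with a score of 81.14 lay beyond the gene. COL27A1, a cartilage collagen, had intronic RUNX2 peaks with scores of 99.9 and 80.76, and COL5A3 had 1 RUNX2 peak with a score of 88.04 just beyond its end.

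The genes of the cartilage fibrils, COL2A1, COL11A1 and COL11A2, had neither RUNX2 nor CBFB peaks, and neither did COL3A1, the fibrillar collagen of skin and vessels. These 4 genes are 36.4% of the fibrillar class, near the 36.9% of all protein-coding genes with neither kind. The nearest RUNX2 peak was 33.3 kb from COL11A1, 89.6 kb from COL3A1, 172.3 kb from COL2A1 and 579.0 kb from COL11A2. The nearest CBFB peaks lay 33.2, 89.5, 101.1 and 378.4 kb away in the same order. COL11A2 lies in the major histocompatibility region, for which the build also holds alternative haplotype sequences. The lists held 2 RUNX2 and 15 CBFB peaks on these sequences, which were not used here, and their part in the empty window of COL11A2 was not tested. COL3A1 lies 19151 bp from COL5A2, but the peaks of COL5A2 lay in the first intron, more than 25 kb away.

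Among network collagens, COL10A1, the marker of hypertrophic chondrocytes, had the most RUNX2 peaks and the highest RUNX2 score, while COL4A3 had the highest CBFB score (857.34). It had 2 RUNX2 peaks with scores of 337.53 (116439698 to 116440603, percentile 97.1) and 108.41 (116465660 to 116466459), both overlapping CBFB peaks with scores of 731.29 and 294.81. The stronger peak covered the end of the gene, and its printed core lay just beyond that end. The weaker peak lay in an intron. NT5DC1, a larger gene that spans this region, is annotated at both peak midpoints as well.

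Of the 6 genes of type IV collagen, the collagen of basement membranes, 2 had a RUNX2 peak, against 36.0% of all protein-coding genes. All 6 are longer than 100 kb, where the class shares were 47.1% up to 200 kb and 53.1% from 200 kb. COL4A2 had 1 RUNX2 peak in intron 4 (score 164.58), which overlapped a CBFB peak of 669.51, while COL4A1, its head-to-head neighbour, had neither kind, with the nearest RUNX2 peak at 78.0 kb. COL4A3 had 1 RUNX2 peak (score 179.29), but its midpoint lay 10 bp from the start of MFF, a gene of mitochondrial fission, 9.74 kb beyond COL4A3. COL4A4 and COL4A6 had only CBFB peaks, with top scores of 68.1 and 112.52, and COL4A5 had none, with the nearest RUNX2 peak at 356.3 kb. Of the type VIII genes, COL8A2 had a RUNX2 peak of 149.41 within TRAPPC3, 24.2 kb from the gene, and COL8A1 had 3 CBFB peaks and no RUNX2 peak.

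The highest score of all collagens was found next to COL6A1, a chain of the beaded filaments that surround cells. COL6A1 lies on the plus strand of chromosome 21, from 47401684 to 47424964, and 4 RUNX2 and 6 CBFB peaks surrounded it. The RUNX2 peak beyond its end (47430034 to 47431513) scored 1197.48, above or level with 99.8% of the list, and overlapped a CBFB peak with the top score of 3100. It started 5070 bp after the end of the gene. A second RUNX2 peak 7030 bp upstream (47393906 to 47395403) scored 441.96 and overlapped a CBFB peak of 1617.88. The other 2 RUNX2 peaks scored 90.23, with no CBFB peak, and 88.22. None of the 4 lay in the gene itself. COL6A1 also had the highest RUNX2 density of the 44 windows, 5.46 peaks per 100 kb, with 1.09 in the rest of the region within 1 Mb.

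The genes of the partner chains were bound as well. COL6A2 had 1 RUNX2 peak 14331 bp upstream of the gene start (score 123.41, CBFB score 615.4). COL6A3 had 4 RUNX2 peaks with scores of 202.04, 164.5, 138.07 and 121.67, all overlapping CBFB peaks, and 9 CBFB peaks in all. Of these RUNX2 peaks, 3 lay from 59108 to 78013 bp into the gene and 1 beyond it. Of the less common type VI chains, COL6A6 had 1 RUNX2 peak (72.61) and COL6A5 had none.

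Among the FACITs, 4 of 10 genes had RUNX2 peaks, against 36.0% of all protein-coding genes and 4.38 genes by length class, which is near the background. CBFB peaks were found at 9, against 62.2% and 6.94 genes. COL14A1 (chromosome 8) had 4 RUNX2 peaks with scores of 64.51, 126.07, 94.17 and 81.33, all overlapping CBFB peaks. COL21A1 had 3 with scores of 90.58, 51.96 and 54.24. COL9A1 had 1 of 186.85, with its midpoint 9203 bp upstream, and COL16A1 had 1 of 81.45. COL9A2, COL9A3, COL12A1, COL19A1 and COL20A1 had CBFB peaks only, with top scores from 89.69 at COL12A1 to 458.46 at COL9A3. COL22A1 had no peak, and the nearest was 1707 kb away for RUNX2 and 1595 kb for CBFB.

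In the transmembrane group, COL23A1 had 1 RUNX2 peak at the end of the gene (score 384.8, percentile 97.9), under a CBFB peak of 2524.46. COL13A1 had 1 RUNX2 peak of 167.11 and COL25A1 1 of 53.93, while COL17A1, the collagen of epidermal hemidesmosomes, had neither kind within reach and its nearest RUNX2 peak at 35.3 kb. The multiplexin COL15A1 had RUNX2 peaks of 117.4 and 114.62, and COL18A1, the source of endostatin, had peaks of 61.88 and 84.27. The latter held 18 copies of the core. COL26A1 had peaks of 215.11 and 116.4, COL7A1 of 63.68 and 74.79, and COL28A1 1 peak of 69.56 upstream.

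**Figure D3:**
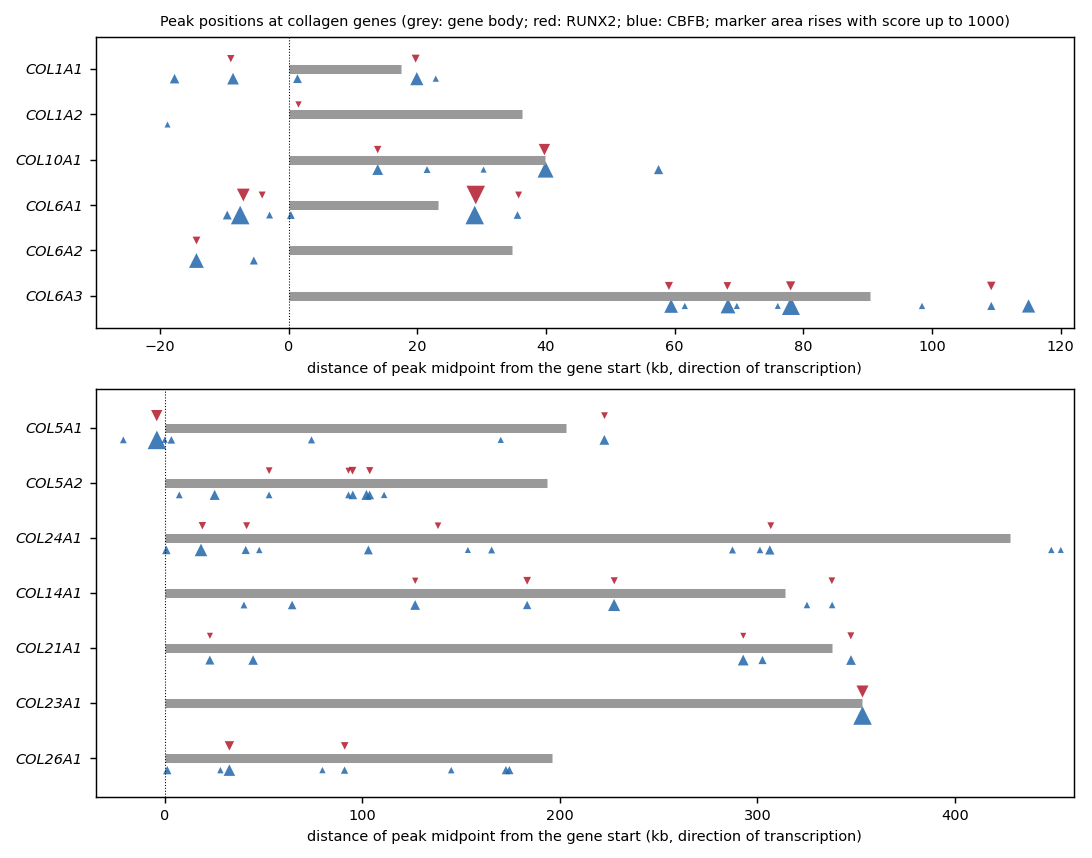
Midpoints of RUNX2 peaks (red, above) and CBFB peaks (blue, below) at 13 collagen genes, in kb from the gene start in the direction of transcription, with gene bodies in grey and marker area rising with the score up to 1000. The strongest RUNX2 peaks of COL1A1, COL5A1, COL6A1, COL6A2, COL10A1, COL21A1 and COL23A1 lay outside the gene or at its end. Those of COL1A2, COL5A2, COL6A3, COL14A1, COL24A1 and COL26A1 lay inside the gene. No RUNX2 peak lay on a gene start.

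Next, the position of the peaks was examined. No collagen gene had a RUNX2 peak on its gene start, which was taken as the most upstream annotated start. The share of all protein-coding genes was 6.95%. A count of 0 of 44 allows a share of up to 6.82% when the limit is set at 3 counts, and of up to 8.04% by the exact 95% interval. The background share lies between these limits, so that the count does not decide whether collagen starts differ from it. No collagen gene had a RUNX2 peak within 1 kb of its gene start either, against 9.20% of protein-coding genes, a share above both limits. This is 1 of several definitions of a start, and genes are not replicates, so that no difference is concluded. Of the 52 RUNX2 peaks, 5 had their midpoint within 1 kb of some annotated start of a collagen gene. Within 1 kb of a start of any protein-coding gene lay 13.5%, against 28.8% of RUNX2 peaks near all protein-coding genes. The limits cover counting error only. The start of the canonical transcript was covered at 0 collagen genes against 7.46%, which again lies between the limits. Only with all annotated transcript starts were any covered, at COL13A1 and COL16A1, inside the genes, which is 4.55% against 9.93% of protein-coding genes. CBFB peaks covered the gene start of 5 collagen genes (COL5A1, COL6A1, COL7A1, COL24A1 and COL27A1), against 19.4% of protein-coding genes, and lay within 1 kb of it at 9, against 24.7%. They covered the canonical start of 6, with COL14A1 added, against 20.8%. With all annotated transcript starts, CBFB peaks covered a start at 15 collagen genes (34.1%), against 26% of protein-coding genes. The CBFB share was thus below or above the background depending on the starts taken. The scores of the CBFB peaks on the 5 gene starts were 53.14, 128.33, 137.0, 163.7 and 155.27, and none of these 5 overlapped a RUNX2 peak.

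Of the 52 RUNX2 peaks, 30 had their midpoint in introns of the collagen gene, 5 in exons, 8 upstream and 9 downstream. Of the 30 intronic peaks, 6 lay in intron 1 of the canonical transcript, 4 of them at COL5A2, and 22 in later introns. The 142 CBFB peaks were placed alike, with 81 in introns, 12 in exons, 24 upstream and 25 downstream. The same counts near all protein-coding genes and the part of introns in the windows are not given here. These places can therefore not be read as particular to collagen genes. RUNX2 midpoints within 5 kb of any start of a protein-coding gene made up 28.8% of the collagen peaks (exact 95% interval 17.1 to 43.1), against 45.4% of the 7369 RUNX2 peaks within 25 kb of any protein-coding gene. For CBFB the shares were 40.8% (32.7 to 49.4) and 45.4%. The nearest start belonged to a gene that is not a collagen for 19 of the 52 RUNX2 peaks and 53 of the 142 CBFB peaks. The peaks of COL4A2, not among these, lay nearest to the start of COL4A1. A peak near a collagen gene is thus not thereby assigned to it.

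Around the canonical start, from 250 bases before to 50 after, the core TGTGGT or its complement was present on either strand at 2 collagen genes, COL1A1 and COL20A1, or 4.55% of 44. The share over 19881 protein-coding genes was 10.7%. No match says only that these 6 letters are missing from the window.

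Overlap between the lists was then compared. CBFB was found at 48 of the 52 RUNX2 peaks, with 1 bp or more in common (92.3%, exact 95% interval 81.5 to 97.9), and the share near all protein-coding genes was 94.0%. The exceptions were the peaks at COL1A2 and COL28A1 and 1 peak each of COL6A1 and COL24A1, with scores from 63.6 to 90.23. By class, 14 of 16 fibrillar, 5 of 5 network and 29 of 31 other peaks overlapped. Conversely, RUNX2 was found at 48 of the 142 CBFB peaks (33.8%, 26.1 to 42.2), against 33.3%. This share was 34.1% for fibrillar, 21.7% (7.46 to 43.7) for network and 37.2% (26.5 to 48.9) for other collagens, and the 3 intervals overlap, with 20.1 to 50.6 for fibrillar genes. Both shares of the collagen genes held the background share within their interval.

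CBFB peaks that overlapped RUNX2 had higher scores than the rest, with medians of 297.6 for 48 peaks and 95.9 for 94. In the fibrillar class these medians were 227.1 and 82.6, in the network class 669.5 and 87.9, and among other collagens 300.4 and 111.2. The top CBFB score of a gene ran from 50.6 to 3100 (median 465.4) at the 26 genes with both kinds of peak, and from 68.1 to 458.5 (median 112.5) at the 9 with CBFB alone. A top score depends on how many peaks a gene has, which was not held equal here. No values over all protein-coding genes stand beside these medians, so that they are not particular to collagen genes. The scores of the 48 overlapping pairs rose together, with Spearman's rho of 0.614, and rho was 0.590 for the 6925 pairs near all protein-coding genes. The points share their libraries, and this rho is a description.

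**Figure D4:**
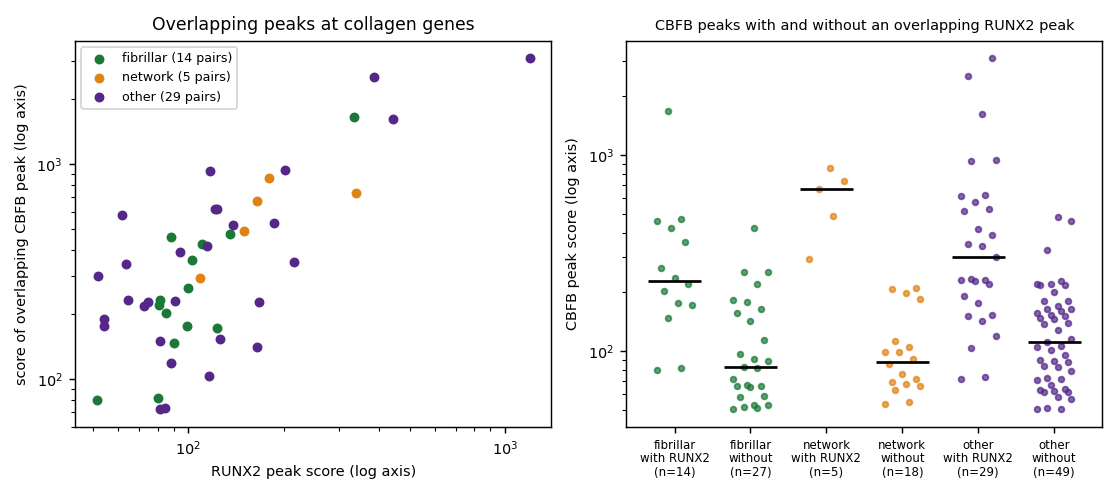
Left, RUNX2 score and score of the overlapping CBFB peak for 48 pairs at collagen genes, both axes logarithmic, by class. Right, scores of the 142 CBFB peaks on a log axis, with and without an overlapping RUNX2 peak, where lines are medians; in each class the median was higher with RUNX2, and scores with and without RUNX2 overlapped in the fibrillar and other classes but not in the network class, where the 5 peaks with RUNX2 lay above the 18 without.

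The RUNX2 peaks at collagen genes had a median score of 99.5 (quartiles 80.6 and 140.9), a median percentile of 61.4, compared with 49.5 for those near all protein-coding genes. A score of 100 or more was reached by 25 of 52 (48.1%, 34.0 to 62.4), against 37.6%. It was reached by 5 of 16 fibrillar, 5 of 5 network and 15 of 31 other peaks, so that network genes had few RUNX2 peaks but none of low score. Of these 5 network peaks, those at COL4A3 and COL8A2 lay in other genes, and both at COL10A1 also lay in NT5DC1. Only the peak at COL4A2 had no other gene at its midpoint. For CBFB, the median percentile was 58.5, against 49.8, and it was 57.1 for fibrillar, 39.9 for network and 60.2 for other collagens.

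Within 100 bp of the midpoint, the core motif was present in 24 of the 52 RUNX2 peaks (46.2%, 32.2 to 60.5), against 41.2% near all protein-coding genes. For CBFB it was present in 65 of 142 (45.8%, 37.4 to 54.3), against 39.3%. The counts in RUNX2 peaks were 7 of 16 for fibrillar, 2 of 5 for network and 15 of 31 for other collagens. The longer form TGTGGTT was present in 19.2% of the RUNX2 peaks, against 21.8%, and the AP-1 motif TGANTCA in 5 peaks (9.62%), against 11.6%. A core and an AP-1 motif can share at most 1 base. The core was present in 26 of 48 CBFB peaks with RUNX2 (54.2%, 39.2 to 68.6) and in 39 of 94 without it (41.5%, 31.4 to 52.1), and these intervals overlap. The peak of COL10A1 held 1 core, 173 bp from its own midpoint, but the overlapping CBFB peak had it 3 bp from its midpoint, together with an AP-1 motif within 100 bp.

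Collagen chains must be hydroxylated, folded, trimmed and cross-linked, and the genes for these steps were counted in the same way. Of 30 such genes, 12 had a RUNX2 peak (40.0%) and 24 a CBFB peak (80.0%), beside the 36.0% and 62.2% of all protein-coding genes. The lysyl hydroxylase PLOD1 had the highest RUNX2 score of the list, 623.46. The prolyl hydroxylase P3H2 followed with 371.97 and a CBFB score of 1320.46. PCOLCE, which enhances procollagen trimming, had 3 RUNX2 peaks with a top score of 199.53. SERPINH1, the collagen chaperone, had only a CBFB peak of 50.73, and the cross-linking enzyme LOX had neither. The cyclophilin PPIB was the only gene of the list with a RUNX2 peak on its start (71.49). Of 10 collagen receptor genes, 5 had a RUNX2 peak and 6 a CBFB peak, and both lists had a peak on the start of ITGB1, the shared integrin beta chain, whose highest RUNX2 and CBFB scores anywhere within reach were 388.75 and 1374.76.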

How the data were processed

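Peaks were called by the authors with MACS on 1 library per antibody. MACS 1.4.1, CASAVA 1.8.2 and hg19 are named in the submitters' processing notes. The aligner and calling limit, and whether input served as control, are not given in the sources used here. The deposited score is read here as the MACS peak score, from the peak names and the range of values. The depth of the libraries is unknown, so that the sensitivity of each list could not be estimated. Coordinates are counted from 1. Unplaced and alternative haplotype sequences were not used, which removed 13 RUNX2 and 42 CBFB peaks.

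Peaks were taken when any base lay within 25 kb of the gene body of GENCODE release 44 on GRCh37. Overlap meant at least 1 bp. The core motif had to lie wholly within 100 bp of the midpoint. Shares carry exact Clopper-Pearson 95% intervals, and densities exact Poisson intervals, for counting error only. Genes and peaks are not replicates, and no p-value was computed. All protein-coding genes served as the background. The counting steps were tested on simulated lists.

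Described singly were COL1A1 and COL1A2, the 6 genes with the most RUNX2 peaks, the 6 with the highest RUNX2 and the 4 with the highest CBFB score, genes without peaks and neighbouring genes. Other genes were added afterwards with their values known. Sequences came from the GRCh37 genome, for up to 8 of the first genes in that order whose printed bases touched no exon, and none from chromosome 8. The members, classes and lists were chosen with earlier results of these data known. The tools were matplotlib 3.10.9, scipy 1.17.1, pandas 2.3.3 and numpy 2.4.6, under Python 3.11.15.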

Additional observations from a re-analysis of the deposited data

How the results depend on the processing

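No paired analysis was possible because there was only 1 library for each antibody. Of 92 recomputed values for 24 results, 57 stayed within 1.5 times the value given above, or, for shares, within its counting interval, and 35 moved. The counts by class with windows at the gene start or a score limit were chosen after seeing the data. With 25 kb around the gene start only, RUNX2 peaks numbered 16 at 14 genes (4 fibrillar, 2 network and 8 other), and CBFB peaks numbered 50 at 25 genes (7 fibrillar, 2 network and 16 other). With scores of 100 or more, RUNX2 peaks numbered 25 at 17 genes (4 fibrillar, 9 other), CBFB peaks numbered 88, and RUNX2 peaks per 100 kb were 0.258 for fibrillar, 0.286 for network and 0.303 for other collagens. CBFB peaks per 100 kb were then 1.14 for fibrillar and 0.629 for network genes. The RUNX2 density of fibrillar genes thus became the lowest of the 3, but fibrillar and network genes had 5 such peaks each, and the cause was not tested. Without COL10A1, the RUNX2 density of network genes was 0.181. A reach of 100 kb gave 91 RUNX2 and 234 CBFB peaks. The CBFB peaks were 78 at or above the median score and 60 with the list cut to the number of RUNX2 peaks, where the overlap was 73.1% for RUNX2 and 63.3% for CBFB. The RUNX2 share was 75% with midpoints within 200 bp and 100% of 25 peaks with scores of 100 or more in both lists. The core was found in 84.6% of RUNX2 and 88.7% of CBFB peaks over the whole peak (75.2% and 78.8% near all protein-coding genes), in 23.1% and 28.9% within 50 bp, and as TGTGGTT in 19.2% and 20.4%. Peaks within 5 kb of a collagen start were 21.2% of RUNX2 and 28.2% of CBFB peaks, 9.62% and 12.7% within 1 kb, and 5.77% and 12.0% with the gene start only. In all 17 combinations of list with reach or score limit, the first included, the share of collagen genes with a peak was above that of all protein-coding genes, by 1.12 to 2.22 times. These combinations draw on the same lists, and most of their windows widen with gene length. With 25 kb around the gene start only, the ratio was 1.26 for RUNX2 and 1.13 for CBFB. In the first setting, the length classes gave 19.4 and 30.9 genes, compared with the 27 and 35 counted. Peaks per 100 kb in the collagen windows were 1.06 times those of the rest of the region within 1 Mb for RUNX2, and 1.09 times for CBFB.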
